A study of Rattus norvegicus with 20 samples.

Results

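The circadian clock genes described here are 10 genes of the molecular clock and its direct output, Clock, Arntl, Per1, Per2, Per3, Cry1, Cry2, Nr1d1, Nr1d2 and Dbp, as measured in the supraoptic nucleus (SON) of the rat hypothalamus. They were chosen by gene symbol from tables that hold 32402 genes, and all 10 were present in each table. Their lowest group mean was 261 normalized counts, far above the minimum mean of 10 used here, so no member was lost to that filter. Poly(A) RNA of SON punches from 20 male Wistar Han rats was sequenced, with 5 rats in each of 4 groups. These were adult euhydrated (EH) and adult dehydrated (DH) rats aged 3 months, and aged EH and aged DH rats aged 18 months. EH rats had free access to water, and DH rats had none for 2 days by the sample labels, whereas the methods of the study give a longer period. The labels give a light period of 12 h and the methods a longer one, and all rats were killed late in the morning. The time at which each rat was killed is not given in the sources used here, so every value below comes from a single window of the day and shows a level, not a rhythm. Rats were housed several to a cage and cages, not rats, were assigned to EH or DH, and the cage of each rat is not given. Differences between groups or rats below therefore cannot be told apart from differences in cage or in the time of killing within that window. The methods state that animal work, punching, RNA isolation and sequencing were carried out together for both ages, although the adult libraries had been reported in an earlier study.

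The mammalian clock is a transcriptional feedback loop present in most cells. CLOCK and BMAL1, the product of Arntl, bind E-box sequences and activate the Period and Cryptochrome genes, whose proteins return to the nucleus and block CLOCK and BMAL1. In a further loop the nuclear receptors REV-ERBα (Nr1d1) and REV-ERBβ (Nr1d2), themselves driven by E-boxes, repress Arntl through ROR response elements. Dbp encodes a transcription factor that is switched on by CLOCK and BMAL1 and acts on D-box sequences. The master clock lies in the suprachiasmatic nucleus (SCN), which is close to the SON in the anterior hypothalamus, and Per1 and Per2 also respond acutely to light, neuronal activity and glucocorticoids.

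Promoter sequence is shown for a few members and partners with such elements before a RefSeq start, picked from the matches found, because such elements are where the factors of the loop are known to act. Windows of 300 bases (250 before and 50 after the start, RefSeq, assembly GRCr8, which is not the assembly of the counts) were at hand for 9 of the 10 members, with Arntl listed as Bmal1. They were searched on both strands for the E-box CACGTG, its variant CACGTT, the D-box TTATGTAA, the ROR half-site AGGTCA and the cAMP response element TGACGTCA. Of all 33469 windows in the table, 6.42% held CACGTG, 4.83% CACGTT, 0.893% TTATGTAA, 16.2% AGGTCA and 1.83% TGACGTCA. The stretches below run 5′ to 3′ along the gene and lie before the start, with the matches in capitals. Per2 carried a D-box and CACGTT, Arntl the ROR half-site and Nr1d1 an E-box at the start shown, the other of its starts holding CACGTT.
Per2 chr9:99497039-99497193 (- strand): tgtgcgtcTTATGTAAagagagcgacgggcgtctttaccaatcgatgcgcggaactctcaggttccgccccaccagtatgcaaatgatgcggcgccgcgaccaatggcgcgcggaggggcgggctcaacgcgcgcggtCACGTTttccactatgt
Arntl (Bmal1) chr1:176766268-176766327 (+ strand): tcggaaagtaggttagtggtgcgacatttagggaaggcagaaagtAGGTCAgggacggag
Nr1d1 chr10:84229625-84229664 (- strand): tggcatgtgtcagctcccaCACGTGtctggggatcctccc
Of the 5 partners searched, Ciart (a repressor of CLOCK and BMAL1), Bhlhe41 (DEC2, which competes for E-boxes), Bhlhe40 (its paralog DEC1) and Tef (a factor of the same family as Dbp) had E-boxes, 3 of them in Ciart, and Nfil3 had no match. The E-box of Bhlhe40 lay 220 bases before its start, and the other stretches follow.
Ciart chr2:186112252-186112351 (- strand): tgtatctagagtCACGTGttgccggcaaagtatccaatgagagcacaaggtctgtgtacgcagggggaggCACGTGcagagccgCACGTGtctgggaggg
Bhlhe41 chr4:180569376-180569425 (- strand): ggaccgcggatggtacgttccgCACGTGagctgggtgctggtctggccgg
Tef chr7:115206607-115206656 (+ strand): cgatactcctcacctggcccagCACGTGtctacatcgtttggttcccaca
Of the other members, Nr1d2 held AGGTCA 187 bases before its start and Cry2 CACGTT 212 bases before its start. No match was found in the windows of Clock, Per1, Per3 and Dbp, which says only that these letters are not in these windows. Matches of this kind are descriptions of sequence and no binding was measured here.

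Between 24268398 and 30348118 reads per library were counted on genes (median 27691998), and the unit of the values below is the normalized count. The authors made it by dividing by size factors estimated within each table. Differences are log2 fold changes (LFCs) of the normalized count plus 1, tested with limma over all genes whose mean reached 10 normalized counts and called at a Benjamini-Hochberg adjusted p under 0.05. In this design p-values measure the spread between 5 rats a group. The tissue carried the transcripts that define the SON, with Avp between 113731 and 325751 and Oxt between 71073 and 147870.4 normalized counts per rat. The 7 SCN markers that could be matched, of 8 listed, summed to only 305 to 420.4 normalized counts per rat, with Vip between 51.1 and 123. In bulk tissue fewer cells of a type and less RNA per cell cannot be told apart.

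In the adult SON, Per1, Per2 and Cry1 rose under DH, and Per3, Nr1d1, Nr1d2 and Dbp fell, so that 7 of the 10 members passed the test, against 12.7% of the 15280 genes tested (7.67% higher and 4.99% lower). The median absolute LFC of the 10 members was 0.380, beside 0.0917 over all genes tested. Clock, Arntl and Cry2 did not pass. The groups did not overlap for 5 members (Per1, Cry1, Nr1d1, Nr1d2 and Clock), against 10.9% of all genes.

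Markers of other tissue and of cell types, including the magnocellular neurons of the SON itself, were read beside these calls. Of the SCN list only Prok2, a secreted output of the SCN clock, passed. Prok2 rose from 7.48 ± 2.43 to 36.2 ± 5.65 normalized counts (SD, n = 5, LFC 2.17, SE 0.246, adjusted p = 7.06e-05). Its EH mean lay below the minimum mean used for testing, so Prok2 was tested only because of its higher DH counts. Its LFC therefore rests on low EH counts, of 4.05 to 10.6 per rat. The summed SCN list was 307 to 392 in adult EH and 308 to 391 in adult DH, and overlapped. The magnocellular list (Avp, Oxt, Scg2, Cartpt, Pdyn and Gal) summed to 222422 to 310962 in EH and 324719.8 to 431536 in DH, with 3 of 6 genes higher. Further, 1 of 6 oligodendrocyte markers was lower and 1 of the 4 tested fibroblast markers higher, and no marker of astrocytes, microglia, endothelium, red blood cells or telencephalic glutamatergic neurons passed. The part of these differences in the values of the clock genes was not tested.

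**Figure D1:**
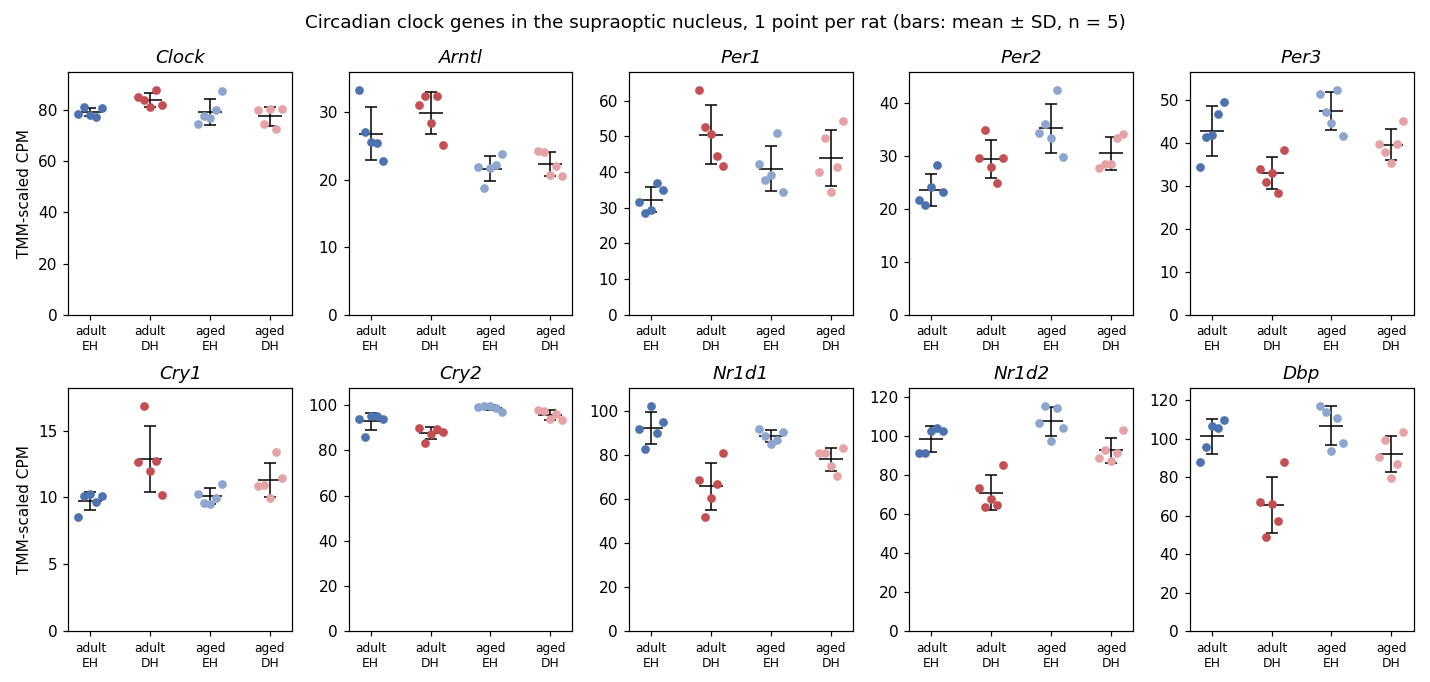
Levels of the 10 clock genes in each of the 20 rats, as read counts over TMM-scaled library sizes (CPM), so that the 4 groups share a single scale (vertical axes start at 0). Points are rats in order of replicate number, and black bars give the mean ± SD of 5 rats. Adult DH rats were highest in mean Per1 and lowest in mean Per3, Nr1d1, Nr1d2 and Dbp, and aged EH rats were highest in mean Per2.

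Per1, the most rapidly inducible of the Period genes, had the highest LFC of the members. Its normalized counts were 851, 766, 786, 992 and 939.9 in the adult EH rats (replicates 1, 2, 4, 5 and 6) and 1693, 1415, 1363, 1195 and 1126 in the adult DH rats (replicates 1 to 5). Every DH rat was above every EH rat, and the mean went from 867 ± 97.8 (SD, n = 5) to 1359 ± 221 (SD, n = 5), a 1.56-fold rise (LFC 0.64, SE 0.101, adjusted p = 0.00103). Per2, whose protein is a core part of the repressor complex, was at 582, 556, 645, 762 and 625 in EH and 798, 939, 753, 671 and 801 in DH. Here the groups overlapped, since EH replicate 5 lay above DH replicates 3 and 4, and the rise was smaller (LFC 0.32, SE 0.0919, adjusted p = 0.0355). It passed the threshold in only 2 of the 10 fits that left out 1 rat, with an adjusted p of up to 0.0825 (without EH replicate 2), and it was lost when EH replicates 1, 2, 4 or 6 or DH replicates 1, 2, 3 or 5 were left out. With libraries rescaled to the same total its adjusted p was 0.0583. Per3, the member of the family thought to be dispensable for the loop, went the other way. It was at 924, 1109, 1120.3, 1256 and 1329.8 in EH and 907, 831, 889, 762 and 1036 in DH, where only EH replicate 1 and DH replicate 5 crossed the gap (LFC -0.37, SE 0.0946, adjusted p = 0.0206). Without EH replicate 5 its adjusted p was 0.0543.

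The Cryptochromes are the other component of the repressor complex. Cry1 was at 230.0, 270.4, 274, 260.3 and 272 in adult EH and 339.6, 453, 323, 343 and 274 in adult DH (LFC 0.39, SE 0.109, adjusted p = 0.0322). DH replicate 2 stood highest, while DH replicate 5 lay within a single count of the highest EH rat, so the absence of overlap rests on that rat. The call was kept in 5 of the 10 fits without 1 rat, and lost without EH replicates 1, 2 or 5 or DH replicates 1 or 4 (adjusted p up to 0.0779). Cry2 was steadier, at 2308 to 2564 in EH and 2241 to 2413 in DH (LFC -0.08, SE 0.0361, adjusted p = 0.167).

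The REV-ERB genes and Dbp fell in adult DH. They are known targets of CLOCK and BMAL1, as are the Period and Cryptochrome genes, of which Per1, Per2 and Cry1 rose. Nr1d1, the gene for REV-ERBα, was at 2476, 2219, 2739.7, 2429 and 2565 in adult EH and 1842, 1390.5, 1630.2, 1805 and 2192 in adult DH. No DH rat reached the lowest EH rat, and the level in DH was 0.707 times that in EH (LFC -0.50, SE 0.0950, adjusted p = 0.00368). Nr1d2, for REV-ERBβ, read 2457, 2450.2, 2754, 2812 and 2773 in EH and 1973, 1711, 1823, 1748 and 2303 in DH, again without overlap (LFC -0.48, SE 0.0733, adjusted p = 8.34e-04). Dbp, the output factor, had the lowest LFC of the members, with 2374, 2572, 2859, 2846 and 2957 in EH and 1801, 1321, 1780.3, 1547 and 2375 in DH. DH replicate 5 touched EH replicate 1 and the other 4 DH rats lay below all EH rats, for a level 0.638 times that of EH (LFC -0.65, SE 0.119, adjusted p = 0.00306). These 3 genes and Per1 passed in all 10 fits that left out 1 rat. The end of Nr1d1 overlaps the thyroid hormone receptor gene Thra on the opposite strand by 1061 bases (RefSeq, GRCr8), and the strand setting of the counting is not given in the sources used here. Thra itself did not pass in adult DH (LFC -0.09, adjusted p = 0.0642) or aged DH (LFC -0.05, adjusted p = 0.506) and was lower in ageing (LFC -0.12, adjusted p = 0.0404).

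In the positive arm neither gene passed in adult DH. Clock was at 2083 to 2178 in adult EH and 2180.5 to 2362 in adult DH, a separation without overlap but of only 6.15% (LFC 0.09, SE 0.0313, adjusted p = 0.0905). Arntl, whose transcript in most tissues is the one opposed in phase to Dbp and the REV-ERB genes, was at 897, 726, 684, 684 and 612 in EH and 834, 870.3, 766, 872 and 679.8 in DH. EH replicate 1 held the highest Arntl of all 10 rats, and the difference between the groups lay within their spread (LFC 0.16, SE 0.0940, adjusted p = 0.285, 95% interval -0.04 to 0.37).

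In the aged SON, Per3, Nr1d1 and Nr1d2 fell under DH and no member rose, so 3 of 10 passed, against 7.29% of the 15346 genes tested (3.25% lower). The median absolute LFC of the members was 0.175, beside 0.0857 over all genes. Only Nr1d1 separated the groups fully, against 7.05% of all genes.

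Beside these calls, 3 of 6 markers of telencephalic glutamatergic neurons were lower in aged DH, and their sum was 864 to 1620.2 against 1676 to 4062 normalized counts in aged EH, without overlap. Prok2 again rose, from 16.4 ± 6.95 to 55.8 ± 10.5 (SD, n = 5, LFC 1.76, SE 0.243, adjusted p = 0.00108), while the summed SCN list was 305 to 358 in aged EH and 349.8 to 420.4 in aged DH. The magnocellular list had 2 of 6 genes higher, with sums of 285226 to 401729 and 346159 to 553842, 1 of 6 oligodendrocyte markers was higher and 1 of 4 red blood cell genes lower. Their part in the values of the clock genes was not tested.

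Nr1d1 was at 2584, 2494, 2388, 2420.4 and 2524 in aged EH (replicates 1, 2, 4, 5 and 6) and 2245, 2256, 2073, 1971 and 2322 in aged DH (replicates 1, 2, 3, 5 and 6). All DH rats lay below all EH rats, with a level 0.874 times that of EH (LFC -0.19, SE 0.0464, adjusted p = 0.0215). Nr1d2 was at 2994, 3242, 2727, 3189.8 and 2902 in EH and 2464, 2593, 2418, 2551 and 2886 in DH, where DH replicate 6 lay above EH replicate 4 (LFC -0.22, SE 0.0554, adjusted p = 0.0267). Per3 read 1438, 1322, 1250.2, 1458 and 1157 in EH and 1103, 1053, 976, 1108 and 1258 in DH, with DH replicate 6 again among the EH values (LFC -0.27, SE 0.0730, adjusted p = 0.0394). Each of these calls was lost in some of the fits that left out 1 rat, which also have fewer rats. In those fits all genes called ranged from 678 to 1186, beside 1119 with every rat. Nr1d1 was lost without EH replicate 1 or DH replicates 3 or 5 (adjusted p up to 0.0570), and Nr1d2 without EH replicates 2 or 5 or DH replicates 1, 2, 3 or 5 (up to 0.0770). Per3 passed only without EH replicates 4 or 6 or DH replicate 6, and had an adjusted p of 0.107 without EH replicate 5. In edgeR on the reads of all 20 libraries Nr1d1 and Per3 did not pass (adjusted p = 0.137 and 0.0597).

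Dbp was at 3285, 3206, 2629, 3091 and 2727 in aged EH and 2521, 2765, 2208, 2421 and 2881 in aged DH, which missed the threshold (LFC -0.22, SE 0.0759, adjusted p = 0.0940), although it passed without EH replicate 4 or DH replicate 6 (adjusted p = 0.0450 and 0.0445) and with DESeq2 on the reads (adjusted p = 0.0454). The genes that rose in adults did not pass here. Per1 was at 1183, 1061, 1098, 1422 and 955 in EH and 1114, 1381, 951, 1157 and 1513 in DH, overlapping over most of its range (LFC 0.09, SE 0.119, adjusted p = 0.732). Per2 was at 966, 1011, 937, 1185 and 832 in EH and 773, 797, 787, 932 and 954 in DH, with its mean lower rather than higher in DH (LFC -0.21, SE 0.0873, adjusted p = 0.168). Cry1 lay at 267 to 306 in EH and 276 to 373 in DH (LFC 0.16, adjusted p = 0.298). Clock, Arntl and Cry2 had LFCs of -0.04, 0.04 and -0.05, with adjusted p from 0.341 to 0.826.

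Whether the response differed between the ages was tested directly, as the LFC of aged rats less that of adult rats over all 20 rats. No member passed, nor did any of the 15159 genes tested (0.0% with limma), while 9.99% of genes had an unadjusted p under 0.05, and edgeR called 0 and DESeq2 55 genes. Per2 came nearest, with an LFC of 0.32 in adults and -0.21 in aged rats, a difference of -0.53 (95% interval -0.82 to -0.25, adjusted p = 0.215). DESeq2 on the whole reads called it (adjusted p = 0.0303). The difference for Per1 was of the same size, -0.55 (95% interval -0.91 to -0.19, adjusted p = 0.292). The members called lower in adults had differences above 0. They were 0.42 for Dbp (0.10 to 0.75, adjusted p = 0.369), 0.31 for Nr1d1 (0.07 to 0.54, adjusted p = 0.377), 0.26 for Nr1d2 (0.05 to 0.46, adjusted p = 0.400) and 0.10 for Per3 (-0.16 to 0.37, adjusted p = 0.843). All of these intervals but that of Per3 left out 0 for the single gene. The adjusted p over all genes did not pass, so no difference between the ages was called. For members called in adult DH the difference subtracts the adult LFC on which that call rests. Its sign is therefore no separate evidence of a smaller response in aged rats. The intervals for Cry1 (-0.53 to 0.06), Cry2 (-0.07 to 0.12) and Arntl (-0.39 to 0.13) included 0, and that for Clock was -0.24 to -0.01.

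**Figure D2:**
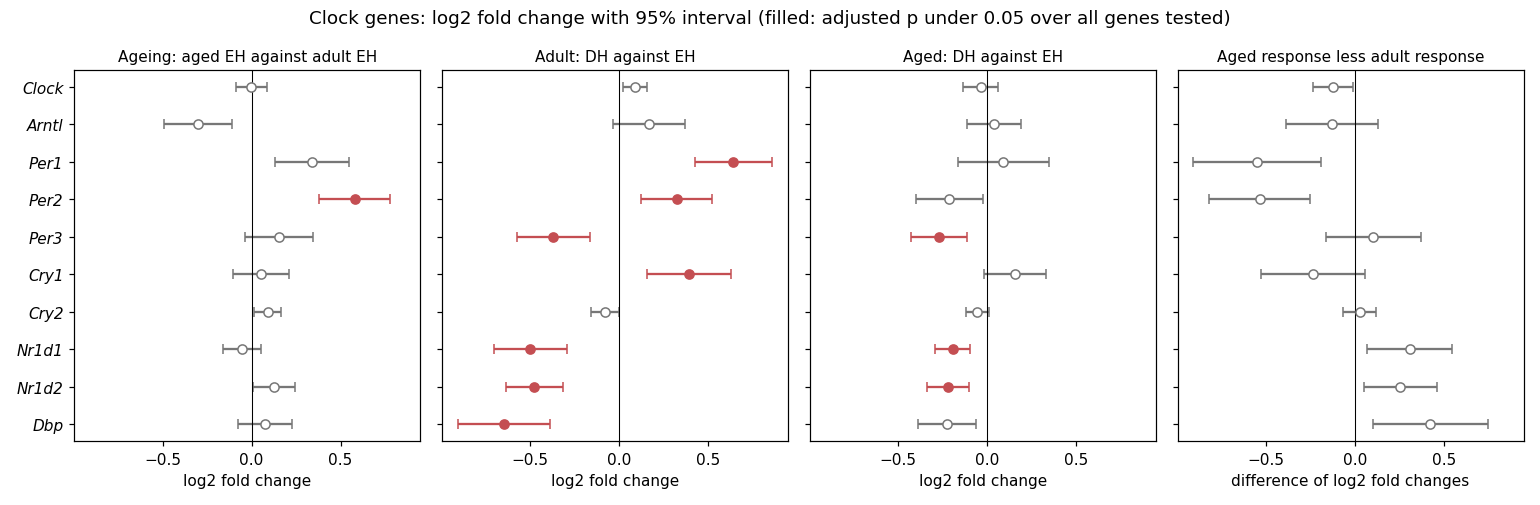
LFC of each clock gene (horizontal axis, log2 scale) in ageing, adult DH and aged DH, and the aged less the adult LFC of DH at the right, with 95% intervals from limma. Filled points had an adjusted p under 0.05 over all genes tested: 1 in ageing, 7 in adult DH, 3 in aged DH and none in the difference between the ages.

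Between EH rats of 3 and 18 months, Per2 was the member that changed, so 1 of 10 passed against 5.99% of the 15369 genes tested (2.69% higher). This comparison shares its EH rats with those of DH. Per2 was at 607, 579, 674, 794 and 652 in adult EH and 967, 1013, 937, 1186 and 837 in aged EH in the table made for this comparison. Every aged rat was above every adult rat, and the level was 1.49-fold higher (LFC 0.58, SE 0.0934, adjusted p = 0.00308). The call stood in all 10 fits without 1 rat and in all 12 other settings. Cry2 also separated the groups, as 6.38% of all genes did, with 2402 to 2673 in adult and 2715 to 2795 in aged EH, but its difference was small (LFC 0.09, SE 0.0349, adjusted p = 0.155).

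Per1 and Arntl lay just outside the threshold, in opposite directions. Per1 was at 887, 797, 820.3, 1035 and 979.8 in adult EH and 1184, 1063, 1098, 1423 and 961 in aged EH (LFC 0.34, SE 0.0965, adjusted p = 0.0567). Arntl was at 935, 755, 714, 713 and 638 in adult EH and 616, 525, 609, 617 and 664 in aged EH (LFC -0.30, SE 0.0896, adjusted p = 0.0664). For Per1 the only aged rat within the adult range was replicate 6, and for Arntl it was again aged replicate 6, which lay above adult replicate 6 alone. Per1 passed without aged replicate 6 or adult replicate 5 (adjusted p = 0.0264 and 0.0464) and, of the 12 other settings, in 3 that include DESeq2 (adjusted p = 0.0116) and sample quality weights (0.0452). Arntl passed without adult replicate 6 (adjusted p = 0.0379) and in 3 of those settings, DESeq2 (adjusted p = 0.0199), libraries rescaled to the same total (0.0374) and edgeR on all 20 libraries (0.0347). The REV-ERB genes and Dbp, which fell in adult DH, did not pass. Their LFCs were -0.06 for Nr1d1 (95% interval -0.16 to 0.05), 0.13 for Nr1d2 (0.01 to 0.25) and 0.08 for Dbp (-0.08 to 0.23), with adjusted p from 0.207 to 0.615. Per3 (LFC 0.16), Cry1 (0.05) and Clock (-0.0018, with a sign that turned between settings) did not pass either. Among the called members no sign turned under any scaling tried.

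With age, 4 of 6 oligodendrocyte markers (235433 to 285818 normalized counts in sum in aged EH against 264039.5 to 386912 in adult EH), 2 of 6 astrocyte markers (106644 to 129949 against 113375 to 139496) and 2 of the 4 tested fibroblast markers (2539.8 to 4479 against 5764 to 6808) were lower. Higher were 2 of 5 microglial markers (5172 to 6103 against 4527 to 4962) and 3 of 6 magnocellular genes (287047 to 401839 against 231479.6 to 324060.0), and none of the SCN list passed (306 to 358 against 319.9 to 408). The part of these differences in the values of Per2 and the other clock genes was not tested.

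On the single scale of TMM-scaled CPM, which sets the 4 groups side by side, the order of the groups differed between members. Mean Per2 was 23.6 ± 2.93 in adult EH, 29.4 ± 3.62 in adult DH, 30.5 ± 3.05 in aged DH and 35.3 ± 4.63 in aged EH. Per1 ran from 32.2 ± 3.56 in adult EH through 40.9 ± 6.31 in aged EH and 44.0 ± 7.90 in aged DH to 50.5 ± 8.30 in adult DH. Dbp followed another order, with 65.6 ± 14.5 in adult DH, 92.0 ± 9.43 in aged DH, 101 ± 9.01 in adult EH and 107 ± 10.2 in aged EH. Nr1d2 kept that order, with 71 ± 8.87, 92.8 ± 6.35, 98.6 ± 6.69 and 108 ± 7.48, and in Nr1d1 the EH groups changed places, with 65.8 ± 10.9, 78.2 ± 5.20, 88.8 ± 2.77 and 92.5 ± 7.20. For these 3 genes adult DH had the lowest mean. Arntl was 21.6 ± 1.83 in aged EH, 22.3 ± 1.80 in aged DH, 26.8 ± 3.95 in adult EH and 29.9 ± 3.08 in adult DH. Neighbours in these orders overlapped in range, except adult DH and aged DH for Nr1d2 and aged DH and aged EH for Nr1d1. All these are means ± SD over 5 rats, and levels are compared only within a gene, since they are not scaled by transcript length.

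Rats of the same group did not hold the clock genes at the same level, and the members differed widely in this spread. They were set beside the 12576 genes with a symbol and a mean of at least 50 in both DH tables, not matched for level. The SD within groups, on the log2 scale, was 0.0432 for Cry2 and 0.0595 for Clock, below the median of 0.0962 over those genes. It was 0.199 for Dbp and 0.220 for Per1, larger than in 86.9% and 90.0% of them. The spread was shared between members. When each rat was expressed as its deviation from the mean of its own group, the gene most like Dbp among 12575 others was Nr1d2 (Pearson's r = 0.90, Spearman's rho = 0.87, 20 rats), followed by Ciart (0.85), Nr1d1 (0.78) and Per3 (0.77). Without the 2 rats farthest from the median of Dbp, r was 0.84 for Nr1d2 and 0.82 for Per3. Of the 4 genes nearest to Dbp, 3 were members, and Ciart was a listed partner. The promoter windows of Dbp and Per3 held no match, and any part of E-boxes in this shared spread was not tested.

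**Figure D3:**
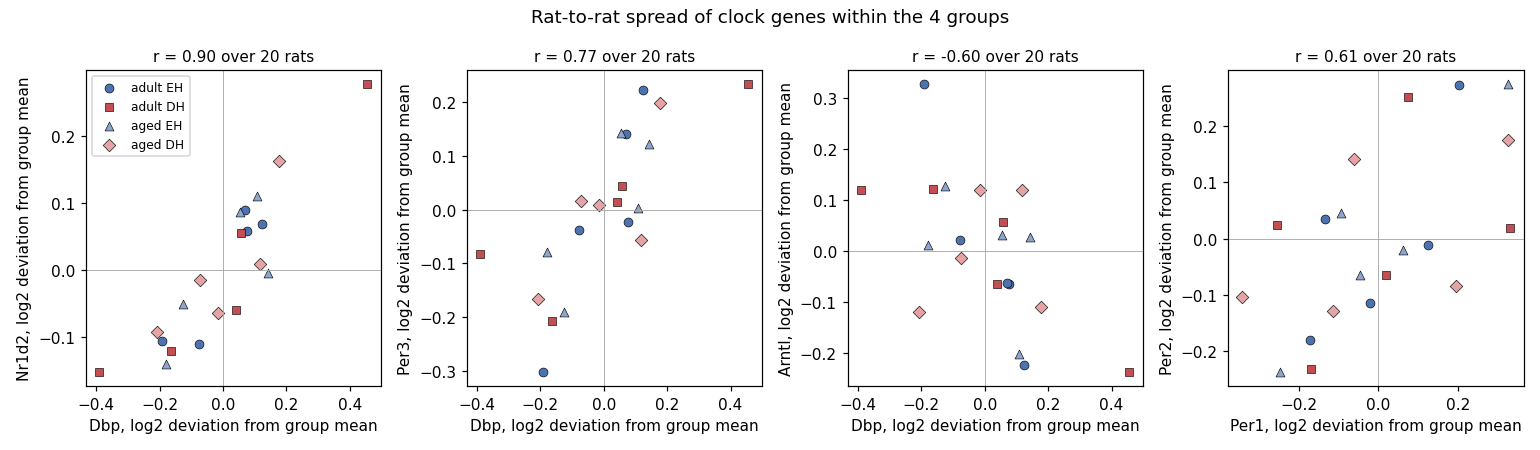
Deviation of each of the 20 rats from the mean of its group, on the log2 scale of the normalized count plus 1, for 4 pairs of clock genes (symbols mark the groups). Nr1d2 and Per3 varied with Dbp from rat to rat, Arntl against Dbp mainly in adult rats, and Per2 with Per1. The adult DH rat at the upper right of the panel of Dbp and Nr1d2 is replicate 5.

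Arntl ran the other way. Over the 20 rats its deviations had r = -0.60 and rho = -0.50 with those of Dbp (r = -0.47 without the 2 rats farthest from the median of Dbp), and Ciart was the gene with the next to lowest r with Arntl among 12575 genes (-0.856), after Slc17a4 (-0.860). The highest were Htr1b (0.79), Ypel3 (0.76) and Afap1 (0.74). With Nr1d1 the deviations of Arntl had only r = -0.31 and rho = -0.10. The opposition to Dbp was not seen in every rat, since Dbp and Arntl deviated with the same sign in 6 of 20. These were adult DH replicate 1, aged EH replicates 1 and 5, and aged DH replicates 2, 3 and 5. In aged DH replicate 3, Dbp deviated by -0.21 and Arntl by -0.12. The opposition thus rested mainly on adult rats, and no r was computed for each age. Below are 2 adult rats picked as examples of it. In adult DH replicate 5, Dbp deviated by 0.46, Nr1d2 by 0.28, Nr1d1 by 0.32 and Per3 by 0.23, while Arntl deviated by -0.24. In adult EH replicate 1 the signs were reversed, with -0.19 for Dbp, -0.11 for Nr1d2, -0.0021 for Nr1d1, -0.30 for Per3 and 0.33 for Arntl. These correlations describe rats that share libraries and size factors, and no test was made of them.

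Per1 followed these genes less closely, with r = 0.47 for Per3, 0.29 for Nr1d2, 0.22 for Dbp, -0.06 for Nr1d1 and 0.07 for Arntl. The genes most like it were Nr4a1 (0.86), Rnf40 (0.81), Egr1 (0.79), Ehmt1 (0.76) and Junb (0.75), of which Nr4a1, Egr1 and Junb are immediate-early genes of active neurons. Per2 followed Per1 (r = 0.61, rho = 0.57, 20 rats, and r = 0.57 without the 2 rats farthest in Per1).

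The wider clock machinery was covered by 30 clock-associated genes that were tested. In adult DH 6 of the 30 passed against 12.7% of all genes, in aged DH 3 against 7.29% and in ageing 2 against 5.99%, so that the shares in aged DH and ageing were near the background. Arntl2, the paralog of Arntl, fell in adult DH from 53 ± 6.63 to 29.6 ± 3.66 normalized counts (SD, n = 5, LFC -0.82, SE 0.148, adjusted p = 0.00266). Tef, related to Dbp, fell from 3923 ± 234 to 3225 ± 183 in adults (LFC -0.28, SE 0.0463, adjusted p = 0.00135) and from 4055 ± 95.4 to 3667 ± 194 in aged rats (LFC -0.15, SE 0.0383, adjusted p = 0.0332), in the direction of Dbp and the REV-ERB genes. Bhlhe41 fell in adult DH (LFC -0.33, SE 0.0601, adjusted p = 0.00284) and rose with age (LFC 0.24, SE 0.0510, adjusted p = 0.0149). Nfil3, which competes with Dbp at D-boxes, rose in aged DH from 137 ± 6.35 to 182 ± 18.0 (LFC 0.40, SE 0.0909, adjusted p = 0.0147). Ciart, although it varied with Dbp from rat to rat, missed the threshold in adult DH (LFC -0.39, adjusted p = 0.216), in aged DH (-0.23, 0.240) and in ageing (0.43, 0.148).

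Of the genes of output and light response, Sik1, a kinase induced by light that restrains Per1 induction in the SCN, rose in adult DH (LFC 0.64, SE 0.1000, adjusted p = 9.66e-04), as did Klf9 (LFC 0.23, SE 0.0683, adjusted p = 0.0413), while Crtc1, the coactivator that Sik1 inhibits, was slightly lower (LFC -0.13, SE 0.0393, adjusted p = 0.0477). Cirbp, a cold-induced RNA-binding protein, fell in aged DH (LFC -0.17, SE 0.0440, adjusted p = 0.0336), and Klf10 fell with age (LFC -0.43, SE 0.114, adjusted p = 0.0423). None of the 11 genes listed as kinases, ubiquitin ligases and cofactors of PER and CRY passed in any comparison. Their median absolute LFC was 0.0372 in adult DH, 0.0207 in aged DH and 0.0501 in ageing, below the median of all genes in each.

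Glucocorticoids and neuronal activity are known to act on Per1 and Per2, and genes that respond to each were listed too. Of 9 glucocorticoid-responsive genes, 6 rose in adult DH (Sgk1, Pdk4, Cdkn1a, Zbtb16, Fkbp5 and Errfi1), against 7.67% of all genes, with 1072 ± 130.1 in EH and 2208 ± 485 in DH for Sgk1 (SD, n = 5, LFC 1.02, SE 0.132, adjusted p = 2.24e-04) and 857 ± 42.0 and 1296 ± 172 for Fkbp5 (LFC 0.59, SE 0.0774, adjusted p = 2.57e-04). Only Cdkn1a rose in aged DH (LFC 0.41, SE 0.106, adjusted p = 0.0304) and none passed in ageing. Of 10 immediate-early genes, Fosl1, Nr4a1, Fos and Dusp1 rose in adult DH, with LFCs of 3.40, 1.25, 1.13 and 0.79 and adjusted p from 4.87e-07 to 0.0117. Fosl1 was also the only one to rise in aged DH (LFC 1.88, SE 0.199, adjusted p = 1.70e-04) and in ageing (LFC 1.39, SE 0.286, adjusted p = 0.0121). As the aged less the adult response, all 9 and all 10 genes of these lists lay below 0 (medians -0.427 and -0.519, beside -0.00142 over all genes), and none passed. In adult DH 9 of 9 and 9 of 10 of them had LFCs above 0, and the lists were chosen with earlier results of these data known. The difference subtracts that adult LFC, so its signs are no separate evidence of a smaller response in aged rats. The part of either list in the values of Per1 and Per2 was not tested.

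**Figure D4:**
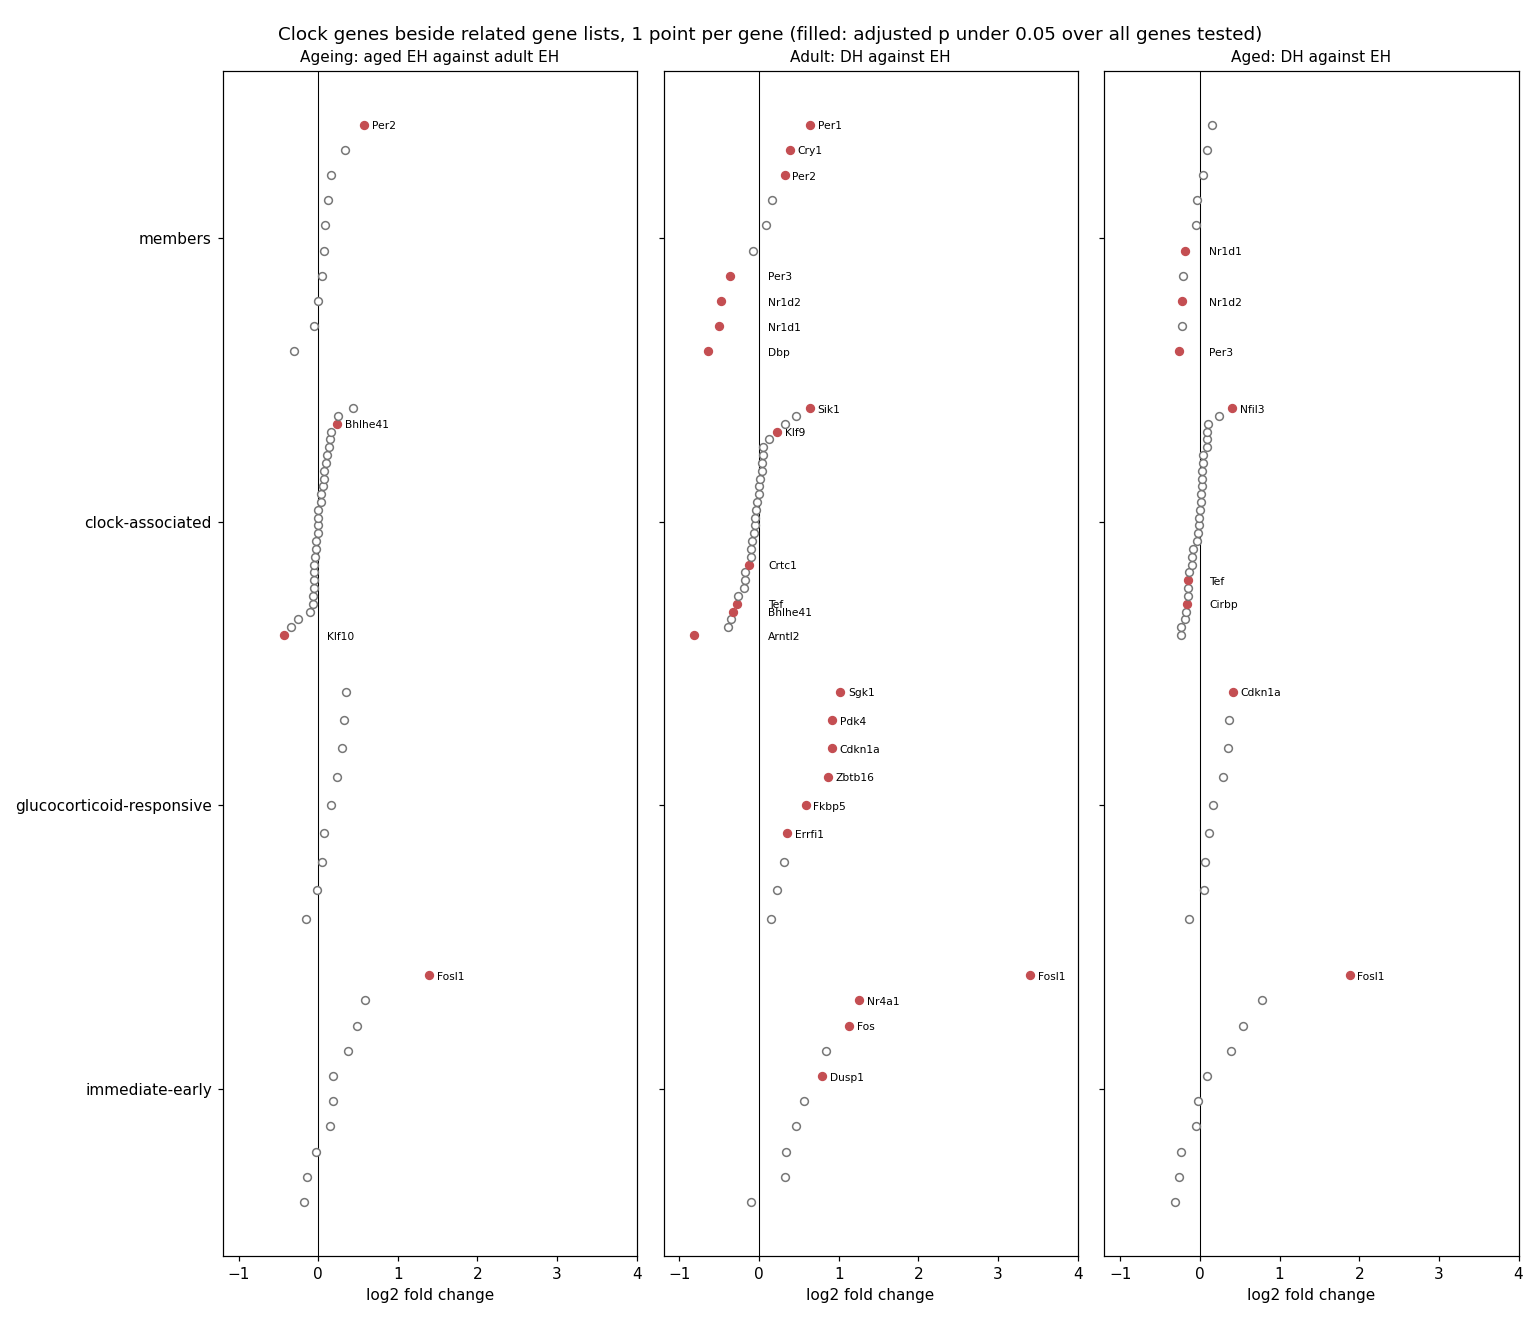
LFC (horizontal axis) of the 10 members, 30 clock-associated genes, 9 glucocorticoid-responsive genes and 10 immediate-early genes in ageing, adult DH and aged DH, with 1 point per gene. Filled, named points had an adjusted p under 0.05 over all genes tested. In adult DH the members lie on both sides of 0, whereas the filled points of the glucocorticoid-responsive and immediate-early lists all lie above it.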

How the data were processed

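Poly(A) RNA of SON punches from 20 rats was sequenced from stranded libraries. The authors aligned reads to the rat genome Rn6 with STAR, obtained gene counts from featureCounts and scaled these with DESeq2. FastQC served for quality. The sources used here do not state versions of STAR and featureCounts or the strand setting of the counting. The signal in each of the 30 sample columns of the 3 tables is, as deposited by the authors, a normalized count, the read count divided by a size factor estimated within that table, so levels compare only within a table. Columns of the authors' own comparisons (group means, fold changes and p-values) were not used, and 0 columns belonged to no sample of the series. Size factors are relative, so a change shared by all transcripts would not be seen.

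Of 32402 genes, 20849 were paired with a symbol. Genes with a mean of at least 10 normalized counts in a comparison were tested in limma 3.58.1 (R 4.3.3) with a mean-variance trend on log2(normalized count + 1), as two-sided tests whose p-values were adjusted by Benjamini-Hochberg across every gene tested. This scale understates changes of low genes. The fits used the 10 libraries of a table, and the age difference was fitted over the 20 libraries of both DH tables, each response within its own table. Divided by the worth of 1 read in their library, 100% of the values in both DH tables and 99.8% to 99.97% per library in the ageing table were whole reads within 0.01 read, and the 10 EH libraries carried equal reads in both tables that hold them. Quasi-likelihood tests in edgeR 4.0.16 and Wald tests in DESeq2 1.42.0 were run on these reads as alternatives, and called 900 and 1295 genes in ageing, 1936 and 2243 in adult DH, and 1113 and 1533 in aged DH. For ageing, aged DH and the age difference they were chosen after seeing the data, as was the edgeR fit of all 20 libraries with TMM scaling. Other alternatives were pseudocounts of 0.5 and 10, no filter, a mean of at least 50, libraries rescaled to the same total, quantile normalization, sample quality weights, a replicate block, a minimum absolute LFC of 0.5 and leaving out each rat. The fits were tested on simulated data. Depth was 24268398 to 30348118 reads per library, and the intervals given are those of limma over rats.

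All 10 members are named, and of other lists each gene past the threshold, with Ciart and Thra named beside results that turn on them. The members, lists and markers were chosen with earlier results of these data known, and a listed gene is not reported here. Likeness between genes was Pearson's r of deviations from group means over 20 rats among genes of sufficient level, computed with numpy 2.4.6 and scipy 1.17.1. RefSeq promoter windows (GRCr8) were matched by symbol.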

Additional observations from a re-analysis of the deposited data

Results flagged for a closer look

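Cry2 was the member with a rat far from the others of its group. In adult EH replicate 2 it was at 2308 normalized counts in the table of adult DH and at 2402 in the table of ageing, which hold the same library, below the other 4 adult EH rats by more than Dixon's criterion allows at 95%. Cry2 passed in neither comparison (LFC -0.08 in adult DH and 0.09 in ageing). Counting each library once, 40 sets of 5 rats (10 members in 4 groups) were examined and 1 met the criterion, where chance gives about 1 in 20.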

How the results depend on the processing

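With the replicate number as a block the members called were 2 in ageing, 4 in adult DH and 1 in aged DH, the clock-associated genes in aged DH 0, and all genes 987 in adult DH, 653 in aged DH and 1 in the age difference. In that fit Per2, Per3 and Cry1 no longer passed in adult DH (adjusted p = 0.123, 0.0557 and 0.0638), while Per1 passed in ageing (0.0253), and Nr1d2 and Per3 did not in aged DH (0.0545 and 0.149). The numbers share no stated animal or batch, and deviations of rats with the same number had correlations between -0.0825 and 0.162, so they were not taken as pairs, and not every rat was most like its own number. With a minimum absolute LFC of 0.5, members called were 3 in adult DH and 0 in aged DH, clock-associated genes 0 in ageing, 2 in adult DH and 0 in aged DH, and all genes 303, 304 and 218. In ageing the members called were 2 with libraries rescaled to the same total, with sample quality weights and in edgeR on all 20 libraries, and 3 in DESeq2, and clock-associated genes were 1 without the filter. In aged DH, edgeR on all 20 libraries called 1 member and DESeq2 5 clock-associated genes. In the age difference DESeq2 called 1 member (Per2) and 55 genes, with no adjusted p for Cry1. Clock in ageing turned sign, to LFCs of 0.0028 (quantile normalization), 0.0052 (quality weights), 0.0013 (edgeR) and 8.26e-04 (DESeq2). Leaving out 1 rat gave 1 to 2 members, 1 to 2 clock-associated genes and 594 to 906 genes in ageing (of 921), where Clock ran from -0.0367 to 0.0191, and 5 to 6, 4 to 7 and 1463 to 1743 in adult DH (of 1934). In aged DH it gave 0 to 4, 1 to 3 and 678 to 1186 (of 1119), with Arntl from -0.0135 to 0.0689, and in the age difference 0 to 5 genes. The lowest ageing counts came without adult EH replicate 5 or aged EH replicate 4 (599 genes), and in aged DH without DH replicate 5 or EH replicate 5 (679), while the 5 genes appeared without aged EH replicate 6. No member remained in aged DH without DH replicates 3 or 5, and 1 without EH replicates 1, 2 or 5 or DH replicates 1 or 2. With libraries rescaled to the same total, the genes higher and lower went from 1172 and 762 to 890 and 1161 in adult DH and from 414 and 507 to 302 and 747 in ageing. The cause of these changes was not tested. Per1, Nr1d1 and Dbp in adult DH and Per2 in ageing passed in every setting run, and Nr1d2 in adult DH in every one but the minimum LFC. Each member had over 200 normalized counts in every rat, and precision comes from 5 rats a group.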

Other observations

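Ratios of 2 genes within a library do not depend on its size factor. The ratio of Per1 to Dbp reads had a median of 0.318 in adult EH (range 0.275 to 0.358), 0.773 in adult DH (0.474 to 1.07), 0.360 in the aged EH rats (range 0.331 to 0.460) and 0.478 in their DH counterparts (range 0.431 to 0.525). Adult DH lay wholly above adult EH in this ratio, and above all aged EH rats too. The ratio of Per2 to Arntl reads separated the ages instead. Its median was 0.944 in adult EH (0.649 to 1.11) and 0.983 in adult DH (0.770 to 1.18), against 1.57 in the aged EH rats (range 1.26 to 1.93) and 1.38 in their aged DH counterparts (range 1.15 to 1.66). The ranges of the adult and aged EH rats did not overlap, and those of the DH rats met only at their ends. Both pairs were chosen after their values were seen, so no test was made, and they compare reads that are not scaled by transcript length, so only their change between groups can be read.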
